A study of Mus musculus with 4 samples.

Results

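The genes described here are H2afx, Mdc1, Rnf8, Rnf168, Trp53bp1, Brca1, Bard1 and Uimc1, a named set of DNA damage response (DDR) genes whose products act on chromatin around damaged DNA and on the silenced sex chromosomes of male meiosis. The set was given by name and not by measured values, and each of the 8 was found by its exact symbol among the 23420 gene symbols of the expression table. All 8 passed the filter on low values (a mean TPM above 1 in either condition, where TPM is a share of all transcripts corrected for gene length) and so were among the 10316 genes tested.

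RNA-seq was performed on pachytene spermatocytes from WT C57BL/6 mice at 23 weeks of age, purified by FACS on DNA content and cultured for 24 h. Control libraries (Ctrl, n = 2) came from cells in DMSO, the solvent, and treated libraries (AZ20, n = 2) from cells in 10 µM AZ20, a small-molecule inhibitor of the kinase ATR. Each library held RNA of 15000 cells. By the study's methods the cells of 1 mouse were divided between both conditions in each experiment. Libraries with the same replicate number were taken as a pair, although their titles do not name the mouse. The culture temperature was given as 32 °C in the methods and 34 °C in the sample labels. The libraries had between 14241978 and 20551380 reads on genes, recovered from the steps in the TPM values, and both AZ20 libraries were deeper than both Ctrl libraries.

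In the pachytene stage the X and Y chromosomes remain largely unpaired, and their genes are shut off in a process called meiotic sex chromosome inactivation. ATR phosphorylates the histone variant H2AX there, MDC1 binds the phosphorylated histone (γH2AX) and spreads the signal along the chromosome loops, and the ubiquitin ligases RNF8 and RNF168 modify H2A-type histones. In somatic cells the same ubiquitin marks recruit 53BP1, encoded by Trp53bp1, and, through RAP80, encoded by Uimc1, the BRCA1-BARD1 ligase. RNA-seq measures transcript levels, so it gives no reading of phosphorylation, ubiquitylation or protein position.

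The cells had the transcripts of their labelled type. Summed over 13 pachytene markers, the level was between 10850 and 11180 TPM in the 4 libraries. Ldhc alone gave between 5216 and 6178 TPM of this, so the sum says little of the weaker markers. Hist1h1t, the testis H1 histone gene, was only between 0 and 1.52 TPM. Sertoli markers (6 genes) summed to at most 0.651 TPM with Sox9, Wt1 and Fshr at 0, and Leydig markers (6 genes) to at most 2.32 TPM with Cyp17a1, Cyp11a1, Insl3, Hsd3b1 and Lhcgr at 0. The 6 macrophage markers summed to between 0.347 and 1.34 TPM with C1qa at 0, and the 4 peritubular myoid markers to between 2.18 and 4.60 TPM. Earlier germ cells were represented by 7 spermatogonial markers at between 7.99 and 20.5 TPM in sum, with Stra8, Dmrt1 and Sohlh1 at 0, and by 6 leptotene-zygotene markers at between 18.6 and 25.7 TPM. Round spermatid markers (8 genes) were present in every library, from 153 to 777 TPM in sum. In such bulk samples fewer cells of a type and less RNA per cell cannot be told apart.

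Transcript levels of the 8 genes covered a wide range, from Uimc1 and H2afx at the top to Brca1 and Bard1 at the bottom. In the Ctrl libraries the mean levels per length were 40.6 ± 1.83 TPM (SD, n = 2) for Uimc1, 27.6 ± 1.55 for H2afx, 13.6 ± 0.773 for Rnf8, 6.96 ± 0.852 for Trp53bp1, 5.47 ± 0.481 for Mdc1, 3.35 ± 0.126 for Rnf168, 2.67 ± 0.624 for Bard1 and 1.96 ± 0.4997 for Brca1. Neighbours in this order had separate ranges except Bard1 and Brca1, the obligate partners, which overlapped. Among all genes tested, the mean over the 4 libraries put Uimc1 at percentile 74.8 and Brca1 at percentile 16.4. In the AZ20 libraries the order was similar, but the ranges of Uimc1 and H2afx overlapped, as did those of Trp53bp1 and Mdc1, and Bard1 (3.34 ± 0.655 TPM) stood above Rnf168 (2.53 ± 0.218 TPM), the reverse of the Ctrl order.

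**Figure D1:**
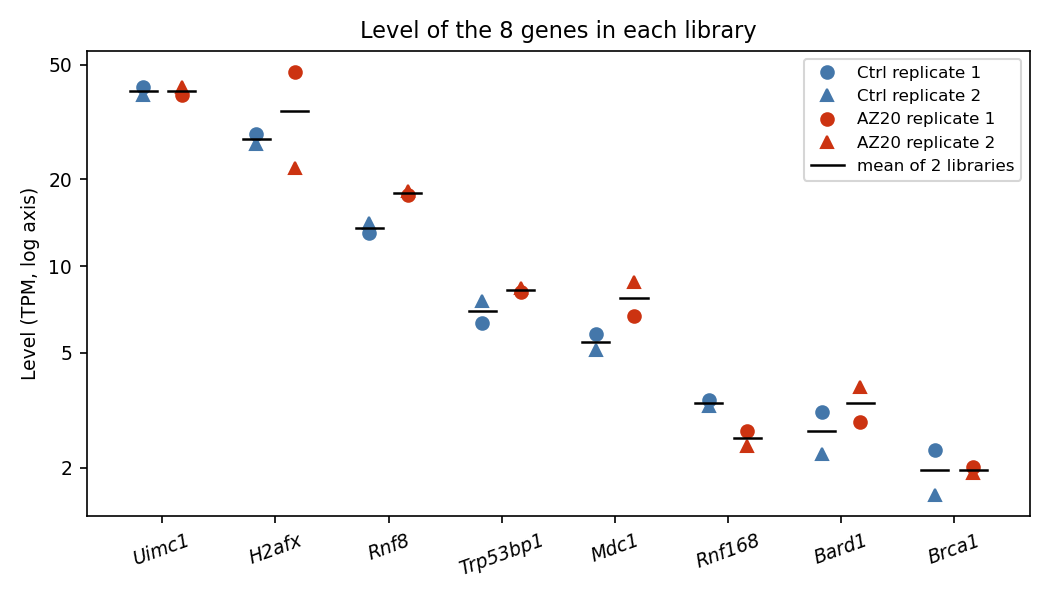
Level of each of the 8 genes in TPM (log axis) in the 2 Ctrl and 2 AZ20 libraries, with 1 point per library (circle for replicate 1, triangle for replicate 2) and a line at each mean. Rnf8, Mdc1 and Trp53bp1 have both AZ20 points above both Ctrl points, Rnf168 has both below, and H2afx has AZ20 points on both sides of Ctrl.

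Whether ATR inhibition altered the transcripts of these mediators was read from a fit of AZ20 against Ctrl over all genes tested (limma on log2(TPM + 1)). To be called, a gene had to change by 2-fold or more and have an adjusted p (Benjamini-Hochberg) under 0.05. None of the 8 genes was called: 0 were higher, where 2.28% of all genes tested were called higher, and 0 were lower, where the table had 0.0485%. With no adjustment of p, limma gave 0 of the 8 a value under 0.05, beside 8.03% of all genes higher and 1.13% lower. The calls were also 0 of 8 with limma-voom on the recovered reads and with the replicate pairs as a block, a fit that called 4.11% of all genes higher and 0.223% lower. All 8 genes are autosomal, and of the 9929 autosomal genes tested 0.101% were called higher and 0.0504% lower, whereas 63.5% of the 340 X-linked genes were called higher.

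The 95% intervals show what these libraries could resolve. On the log2(TPM + 1) scale the interval left out a 2-fold rise for 6 of the 8 genes (all except H2afx and Mdc1). It did so for 73.1% of all genes tested. For all 8 genes it left out a 2-fold fall on that scale, as it did for 87.6% of all genes. At low levels a 2-fold change of TPM is less than 2-fold on that scale. The intervals thus still include a 2-fold fall of TPM for Rnf168 and Brca1 and a 2-fold rise for Bard1. The median log2 change of the 8 genes was 0.22, against 0.07 over all genes tested and 0.06 over autosomal genes, and 7 of the 8 values were above 0, as were 6166 of the 10316 over all genes tested. The values of Uimc1 and Brca1 were close to 0 and turned below 0 under median-of-ratios scaling, quantile normalization and limma-voom, and that of Bard1 under quantile normalization. These settings shifted the median of all genes by -0.074, -0.14 and -0.080 respectively, and the part of this shift in the sign changes was not tested. Both AZ20 libraries lay above both Ctrl libraries for 3 of the 8 (Mdc1, Rnf8 and Trp53bp1) and for 26.4% of all genes tested, and below them for 1 (Rnf168) and for 11.7% of all genes.

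**Figure D2:**
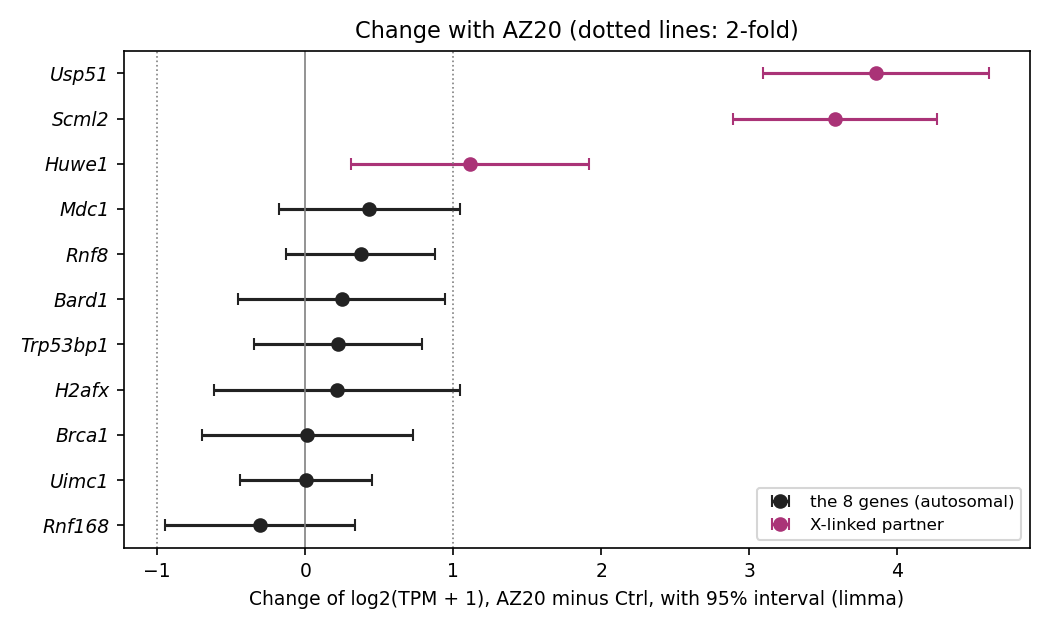
Log2 change (AZ20 against Ctrl, on the log2(TPM + 1) scale) of the 8 genes (black) and 3 X-linked partners (purple), with points for the limma estimate, bars for its 95% interval and dotted lines at 2-fold. For the 8 genes every interval includes 0, and those of H2afx and Mdc1 also include the 2-fold rise, while Usp51 and Scml2 lie beyond it.

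H2afx encodes the H2A variant whose phosphorylated tail is the mark that MDC1 reads. It is a gene of a single exon at chr9:44334694-44336077 on the plus strand (GRCm38). Its level was 28.7 and 26.5 TPM in Ctrl replicates 1 and 2 and 47.2 and 21.9 TPM in AZ20 replicates 1 and 2. The AZ20 libraries thus lay on either side of Ctrl, the first above both and the second below both. Their levels differed 2.16-fold, against 1.08-fold between the Ctrl libraries. The reads behind the AZ20 values were 933 (exact 95% Poisson interval 874 to 995) and 390 (352 to 431), so the gap exceeded counting error. The log2 change was 0.21 (SE 0.35, 95% interval -0.61 to 1.04, limma adjusted p = 0.92), and within pairs it was 0.70 in pair 1 and -0.27 in pair 2. The direction rested on 1 library: the log2 change was -0.32 without AZ20 replicate 1 and 0.75 without AZ20 replicate 2.

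The round spermatid markers also differed between the AZ20 libraries. Their summed level was 369 and 153 TPM in Ctrl replicates 1 and 2 and 777 and 256 TPM in AZ20 replicates 1 and 2, so AZ20 replicate 1 was the highest library in both measures, while the lowest was Ctrl replicate 2 for the markers and AZ20 replicate 2 for H2afx. Tnp2, a transition protein gene, was 191, 81.0, 426 and 123 TPM in that order, and Prm1, a protamine gene, was 83.0, 39.2, 210 and 73.9 TPM. None of the 8 spermatid markers was called by limma, and their part in the H2afx values was not tested. A predicted miRNA gene, Gm44335, shares 141 bases with the H2afx exon on the opposite strand.

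Mdc1 encodes the adaptor that binds γH2AX and carries the signal from the chromosome axes into the loops. The gene has 16 exons at chr17:35841515-35859670 on the plus strand. Its level was 5.81 and 5.13 TPM in Ctrl and 6.72 and 8.83 TPM in AZ20, replicates 1 and 2 in each case. Both AZ20 libraries were above both Ctrl libraries, and the second AZ20 library was the highest. The log2 change of 0.43 (SE 0.26, 95% interval -0.18 to 1.04) had the largest size of the 8, and its limma adjusted p was 0.72. It was 0.18 in pair 1 and 0.68 in pair 2, so the size differed between pairs while the sign did not.

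Rnf8 encodes the ubiquitin ligase that binds phosphorylated MDC1 and starts ubiquitylation at damage sites. The gene has 9 exons at chr17:29614790-29644991 on the plus strand. Its level was 13.1 and 14.2 TPM in Ctrl and 17.6 and 18.3 TPM in AZ20. The replicates lay close together, within 1.08-fold in Ctrl and 1.04-fold in AZ20, and the groups did not overlap. The log2 change was 0.37 (SE 0.21, 95% interval -0.13 to 0.87, limma adjusted p = 0.70), and it was 0.40 in pair 1 and 0.35 in pair 2. The TPM values correspond to a gene model of 2031 bases, whereas the RefSeq-linked transcripts of GENCODE cover 5404 bases, so the level relative to other genes depends on which model is used. The change under the longer model was not tested. Exons of Gm28043, an annotated readthrough gene on the same strand that has no row in the table, share 1542 bases with Rnf8.

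Rnf168 encodes the ligase that extends the ubiquitin signal on H2A after RNF8. The gene has 6 exons at chr16:32277459-32301434 on the plus strand. Its level was 3.44 and 3.26 TPM in Ctrl and 2.68 and 2.37 TPM in AZ20. It was the only 1 of the 8 genes with both AZ20 libraries below both Ctrl libraries. The log2 change was -0.30 (SE 0.27, 95% interval -0.95 to 0.34, limma adjusted p = 0.83), with -0.27 in pair 1 and -0.34 in pair 2. Its reads numbered between 139 and 174 per library, where Uimc1 had between 1238 and 1679.

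Since Rnf8 had both AZ20 libraries above Ctrl and Rnf168 both below, the ratio of their TPM, chosen after the values were seen, had to separate the conditions and only describes the size of the gap. Rnf8 to Rnf168 was 3.80 and 4.35 in Ctrl against 6.57 and 7.70 in AZ20, with means of 4.07 ± 0.384 and 7.14 ± 0.801 (SD, n = 2). It was the first of 9 such ratios among the 8 genes and their closest partners, and for 2 libraries against 2 a two-sided exact permutation test cannot give a p below 0.333. Of the other 8 ratios, Bard1 to Brca1 (1.35 and 1.39 in Ctrl, 1.43 and 1.99 in AZ20) and Uimc1 to Rnf168 (12.2 and 12.04 in Ctrl, 14.7 and 17.7 in AZ20) were also higher in both AZ20 libraries. Uimc1 to Fam175a was lower in both, at 0.443 and 0.377 in Ctrl and 0.309 and 0.322 in AZ20, and the other 5 overlapped. The denominators Rnf168 and Fam175a had separate ranges on their own, so their ratios to Uimc1 add little to those values. How often ratios of other genes separate the conditions was not computed.

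**Figure D3:**
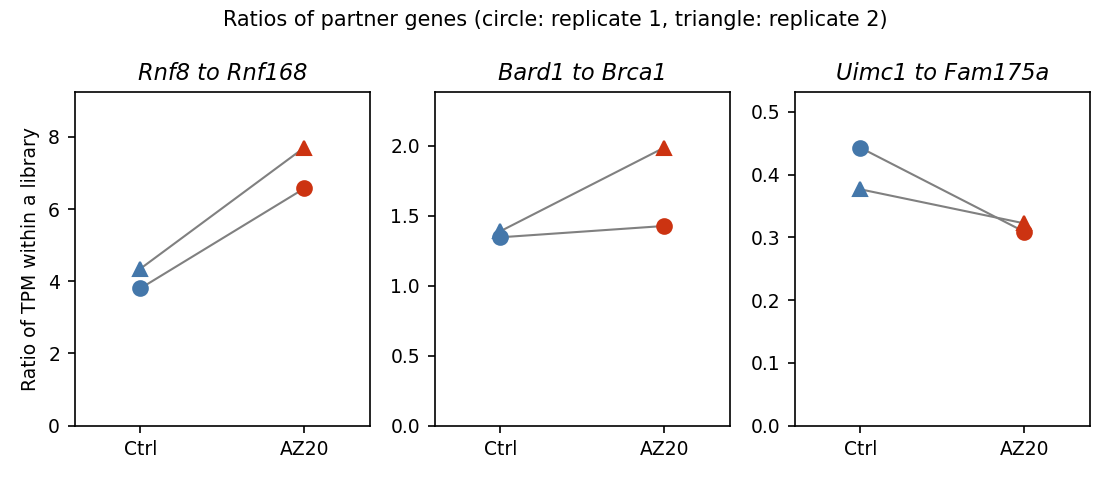
Ratios of TPM within each of the 4 libraries for 3 gene pairs, on linear axes from 0, with lines that join the libraries of a replicate pair. The Rnf8 to Rnf168 points are at 3.80 and 4.35 in Ctrl and at 6.57 and 7.70 in AZ20. The 3 pairs drawn all had separate ranges, and the ratios that overlapped are not drawn.

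The proximal promoters of the genes whose ranges were apart in this signalling arm are shown so that their sequence can be set beside the values: Mdc1 and Rnf8, with AZ20 above Ctrl, and Rnf168, with AZ20 below. Each is the RefSeq window from 250 bases before to 50 bases after the start of the gene (GRCm38.p6), printed 5′ to 3′ on the strand of the gene. Capitals mark the CCAAT pentamer, the core of the NF-Y site, and AACGG, a form of the MYB core, on either strand (ATTGG and CCGTT on the reverse strand).
Mdc1 (chr17:35841248-35841547, plus strand): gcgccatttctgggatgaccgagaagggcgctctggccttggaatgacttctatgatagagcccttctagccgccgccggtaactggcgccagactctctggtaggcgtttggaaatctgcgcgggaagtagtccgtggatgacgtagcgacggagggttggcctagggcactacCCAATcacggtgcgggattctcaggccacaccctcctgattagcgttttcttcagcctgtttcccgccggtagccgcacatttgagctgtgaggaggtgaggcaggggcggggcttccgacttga
Rnf8 (chr17:29614539-29614838, plus strand): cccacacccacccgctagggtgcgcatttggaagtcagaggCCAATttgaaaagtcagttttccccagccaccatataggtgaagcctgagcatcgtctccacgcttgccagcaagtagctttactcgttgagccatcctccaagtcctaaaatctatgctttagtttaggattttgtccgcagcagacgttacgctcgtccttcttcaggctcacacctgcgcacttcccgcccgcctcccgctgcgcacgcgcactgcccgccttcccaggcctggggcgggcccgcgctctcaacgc
Rnf168 (chr16:32277211-32277510, plus strand): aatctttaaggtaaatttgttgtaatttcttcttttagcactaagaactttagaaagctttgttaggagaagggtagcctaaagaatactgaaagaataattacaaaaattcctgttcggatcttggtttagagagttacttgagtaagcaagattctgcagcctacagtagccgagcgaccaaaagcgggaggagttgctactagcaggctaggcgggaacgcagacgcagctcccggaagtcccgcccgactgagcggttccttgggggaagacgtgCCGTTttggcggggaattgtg
CCAAT occurred at -75 from the start in Mdc1 and at -209 in Rnf8, and AACGG, as CCGTT, at 29 bases after the start in Rnf168. The window of Trp53bp1, whose AZ20 libraries were also both above Ctrl, held neither motif. RefSeq windows were matched for 7 of the 8 genes, all but H2afx. CCAAT was in 4 of these 7 (also in Brca1 and Uimc1) and in 37.9% of 27025 mouse promoter windows of the same length, while AACGG was in 1 of 7 and in 17.7% of all windows. The windows of the 7 genes held between 14 and 23 CG dinucleotides, against a median of 7 over all windows. These counts lay between percentiles 63.1 and 78.4 of all windows. These matches describe the letters of the windows and are not evidence of binding.

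Trp53bp1 encodes 53BP1, which reads ubiquitylated H2A at double-strand breaks and limits end resection. The gene has 28 exons at chr2:121193281-121271407 on the minus strand. Its TPM values correspond to a gene model of 7711 bases, whereas the RefSeq-linked transcripts of GENCODE cover 9621 bases. Its level relative to other genes, Mdc1 among them, thus depends on which model is used. Its level was 6.36 and 7.57 TPM in Ctrl and 8.16 and 8.37 TPM in AZ20. The AZ20 libraries were close to each other and above both Ctrl libraries, but the gap to the nearer Ctrl library was smaller than the gap between the Ctrl libraries. The log2 change was 0.22 (SE 0.24, 95% interval -0.34 to 0.79, limma adjusted p = 0.86), with 0.32 in pair 1 and 0.13 in pair 2. In GENCODE, exons of Tubgcp4, a γ-tubulin complex gene on the opposite strand, share 2130 bases with Trp53bp1. How much of this overlap lies in the counted gene models was not tested. Without strand information, reads in shared bases cannot be told apart. Tubgcp4 was 3.91 and 3.69 TPM in Ctrl and 5.26 and 5.03 TPM in AZ20 (log2 change 0.36, limma adjusted p = 0.78), so its AZ20 libraries were above Ctrl as well, and its part in the Trp53bp1 values was not tested.

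Brca1 encodes the ligase that marks the unsynapsed axes of the sex chromosomes and acts upstream of ATR there. The gene has 23 exons at chr11:101488764-101551955 on the minus strand. Its level was 2.31 and 1.60 TPM in Ctrl and 2.02 and 1.91 TPM in AZ20. Both AZ20 libraries lay between the Ctrl libraries, which differed 1.44-fold, the largest ratio between Ctrl replicates of the 8 genes. The log2 change was 0.01 (SE 0.30, 95% interval -0.70 to 0.73, limma adjusted p = 0.997).

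Bard1 encodes the RING partner that BRCA1 needs for stability and ligase activity. The gene has 11 exons at chr1:71027498-71103146 on the minus strand. Its level was 3.11 and 2.23 TPM in Ctrl and 2.88 and 3.81 TPM in AZ20. The groups overlapped, since AZ20 replicate 1 lay between the Ctrl libraries. The log2 change was 0.25 (SE 0.30, 95% interval -0.46 to 0.95, limma adjusted p = 0.88), with -0.08 in pair 1 and 0.57 in pair 2. Brca1 and Bard1 were each lower in Ctrl replicate 2 than in Ctrl replicate 1, by 1.44-fold and 1.396-fold.

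Uimc1 encodes RAP80, the ubiquitin reader that brings the BRCA1-A complex to chromatin. The gene has 15 exons at chr13:55027880-55100300 on the minus strand. Its level was 41.9 and 39.3 TPM in Ctrl and 39.4 and 42.0 TPM in AZ20, with between 1238 and 1679 reads per library. The ranges of both conditions covered nearly the same span. Its log2 change of 0.0039 had the narrowest 95% interval of the 8 genes, from -0.44 to 0.45 (SE 0.19, limma adjusted p = 0.999), which corresponds to between 0.737-fold and 1.37-fold on the (TPM + 1) scale. A processed pseudogene, Gm6344, overlaps 416 exonic bases of Uimc1 on the opposite strand.

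**Figure D4:**
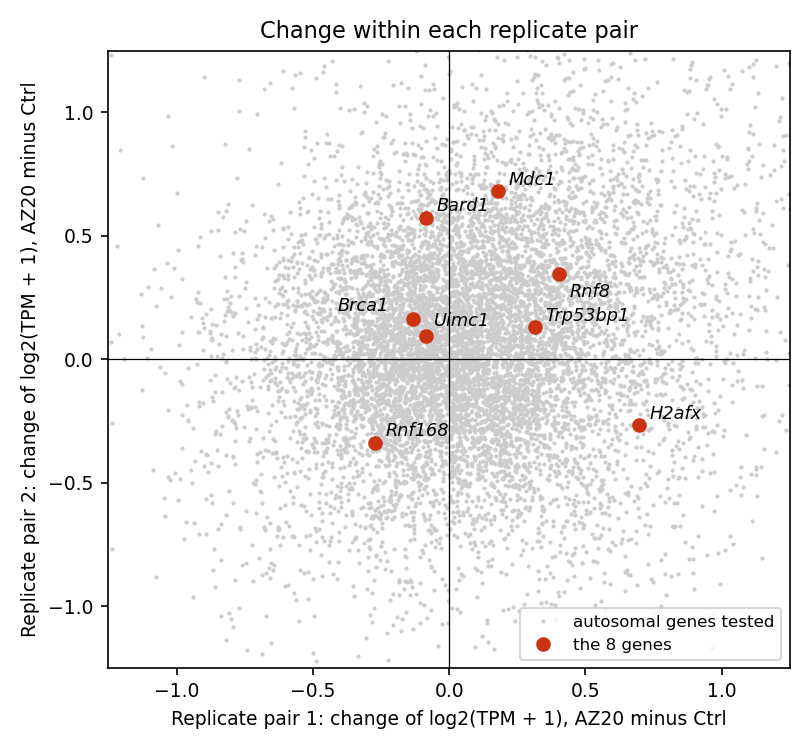
Log2 change within replicate pair 1 (horizontal) and pair 2 (vertical) of the 8 genes, over autosomal genes tested, with genes beyond the axis limits not drawn. Mdc1, Rnf8 and Trp53bp1 are positive in both pairs, Rnf168 is negative in both, and the other 4 differ in sign between pairs.

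The sign was the same in both pairs for 4 of the 8 genes. It was positive in both for 3, where 36.1% of all genes tested were, and negative in both for 1, where 19.4% were. By these counts, as by the ranges of the libraries, the 8 genes were close to the table as a whole.

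The genes that act with these 8 were described by 7 lists of partners, 79 genes in all, of which 75 had a row and 66 were tested. By limma 2 of the 66 were called higher, where 2.28% of all genes tested were, and 0 lower. Without adjustment, p was under 0.05 for 6, all with AZ20 higher, where 8.03% of all genes were. Both counts are near these shares. Both called genes, Usp51 and Scml2, are X-linked. The median log2 change over the 66 was 0.04, against 0.07 over all genes tested, and the 62 autosomal partners had a median of 0.03 and 0 calls.

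The kinases and their activators (17 genes, all tested) had 0 calls and a median log2 change of -0.07. Atr, which encodes the target of AZ20, was 93.2 and 85.1 TPM in Ctrl and 81.0 and 87.5 TPM in AZ20, with overlapping ranges. Its log2 change was -0.08 (limma adjusted p = 0.95). Atrip, the ATR-binding subunit, had the lowest value of the list, -0.50 (limma adjusted p = 0.69). Rad1, of the 9-1-1 clamp that stimulates ATR, had the highest. It was 47.0 and 80.2 TPM in Ctrl and 133 and 101 TPM in AZ20, with both AZ20 libraries above both Ctrl libraries and a log2 change of 0.90 (SE 0.29, limma adjusted p = 0.35). Its limma adjusted p was 0.018 with the replicate block, but its change stayed under 2-fold. Within pairs its log2 change was uneven, at 1.48 in pair 1 and 0.33 in pair 2. Hus1b, a clamp subunit, had a log2 change of 0.84 (limma adjusted p = 0.38, and 0.035 with the replicate block). Topbp1, a direct activator of ATR, had 0.61 (limma adjusted p = 0.51). They were the other genes of the list with an unadjusted limma p under 0.05, and were named after their values were seen. This made 3 of the 17 genes with AZ20 higher, beside 512 of the 9929 autosomal genes tested.

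The genes that set or remove marks on the H2AX tail or exchange the histone (12 genes, 9 tested) had 0 calls and a median of -0.02. Baz1b, the kinase for the H2AX terminal tyrosine, had the highest log2 change at 0.55 (limma adjusted p = 0.70), and Supt16, of the histone chaperone FACT, the lowest at -0.28 (limma adjusted p = 0.83). The other H2A variants (10 genes, 7 in the table, 6 tested) had 0 calls and a median of 0.12. H2afz, the gene of H2A.Z, had the most transcript of that list, between 3101 and 3619 TPM, and a log2 change of -0.02 (limma adjusted p = 0.98). In TPM, H2afx was thus between 0.00671 and 0.0142 of the H2afz level. Whether the libraries captured the transcripts of both genes alike was not tested, so this is not a ratio of amounts in the cell. H2afb1, a testis H2A variant whose symbol matched loci on more than 1 chromosome, had the highest log2 change of that list at 0.42 (SE 0.69, limma adjusted p = 0.92), with 6.23 and 2.48 TPM in Ctrl and 13.1 and 2.18 TPM in AZ20. AZ20 replicate 1 was again the highest library.

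**Figure D5:**
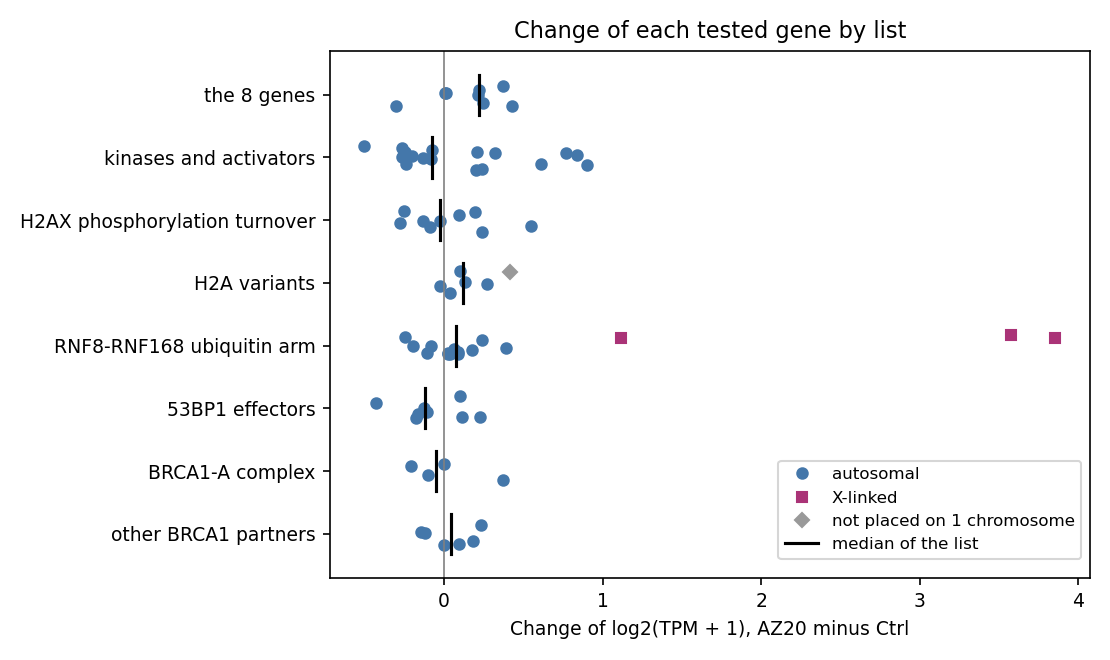
Log2 change (AZ20 against Ctrl) of each tested gene of the 8-gene set and of the 7 partner lists, with a bar at the median of each list and squares for X-linked genes. The called genes, Usp51 and Scml2, stand to the far right in the ubiquitin list, Huwe1 lies at 1.11, and the rest lie between -0.50 and 0.90.

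The ubiquitin arm around RNF8 and RNF168 (18 genes, 16 tested) held both calls. Usp51, a deubiquitinase that removes RNF168 marks from H2A, was listed at 0 in both Ctrl libraries and at 17.1 and 10.6 TPM in AZ20. This was at least 37.2-fold higher against a floor of 3 reads in each Ctrl library (log2 change 3.86 on the log2(TPM + 1) scale, SE 0.32, limma adjusted p = 0.000715). Scml2, a Polycomb-group protein of the germline that acts on H2A ubiquitylation, was 0.245 and 0.787 TPM in Ctrl and 16.8 and 16.9 TPM in AZ20 (log2 change 3.58, SE 0.29, limma adjusted p = 0.000632). For both genes all AZ20 values were far above all Ctrl values. When either AZ20 library was left out, 0 genes of the whole table were called higher. For Usp51 the log2 change was 3.53 without replicate 1 and 4.18 without replicate 2 (limma adjusted p = 0.095 and 0.070), and for Scml2 it was 3.58 in both cases (limma adjusted p = 0.13 and 0.12). Huwe1, an X-linked ubiquitin ligase that acts on H2AX, was 0 and 0.0119 TPM in Ctrl and 1.12 and 1.24 TPM in AZ20, from 0 and 2 reads against 237 and 238. Its log2 change, 1.11 on the log2(TPM + 1) scale, was not called by limma (adjusted p = 0.32) but was by limma-voom on the reads (adjusted p = 0.011).

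The 13 autosomal genes tested in the ubiquitin arm had 0 calls and a median of 0.04, and Usp3, an H2A deubiquitinase, had the lowest log2 change of the list at -0.24 (limma adjusted p = 0.87). The 53BP1 effectors (11 genes, 10 in the table, 8 tested) had 0 calls and a median of -0.12. Within them Paxip1, the 53BP1-binding protein PTIP, was highest at 0.23 (limma adjusted p = 0.90). Fam35a, the shieldin subunit SHLD2, was lowest at -0.43 (limma adjusted p = 0.82).

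The genes of the BRCA1-A complex, which RAP80 brings to ubiquitylated chromatin, were listed with Fam175b, the BRISC scaffold gene. These 5 further genes (4 tested) had 0 calls and a median of -0.05. Fam175a, the scaffold Abraxas, was 94.5 and 104 TPM in Ctrl and 128 and 130 TPM in AZ20, with separate ranges and a log2 change of 0.37 (limma adjusted p = 0.59). Bre, the gene of BRCC45, had the lowest log2 change at -0.21 (limma adjusted p = 0.85). Brcc3, the X-linked deubiquitinase of the complex, was not tested because its level was under 1 TPM: it was listed at 0 in both Ctrl libraries and at 0.0617 and 0.120 TPM in AZ20, from 4 and 7 reads. The other BRCA1 partners (6 genes, all tested) had 0 calls and a median of 0.05, with Palb2, the bridge to BRCA2, highest at 0.23 (limma adjusted p = 0.83).

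Across the 4 libraries, the partner with the most similar level to each gene was found by the Euclidean distance of log2(TPM + 1). It was Rif1 for Uimc1 (distance 0.220), Bap1 for Rnf8 (0.372), Herc2 for Bard1 (0.379), H2afy3 for Brca1 (0.421), L3mbtl2 for Trp53bp1 (0.425) and for Mdc1 (0.507), Mcph1 for Rnf168 (0.543) and Palb2 for H2afx (0.718). H2afx had the largest of these distances. This measure reflects the level and 4 libraries only. The length recovered behind the TPM of L3mbtl2 was 490 bases, up to a whole factor, against 3810 in its RefSeq-linked transcripts. Its level, and so its matches, may depend on which gene model is used.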

How the data were processed

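RNA of 4 cultured spermatocyte libraries was sequenced as paired 150-base reads from a kit for low input. By the study's methods and the submitters' processing notes, reads were trimmed by the authors (Trimmomatic 0.39), aligned uniquely to GRCm38/mm10 with STAR 2.5.4b and counted them with featureCounts 2.0.1 on the refGene annotation. The deposited table holds TPM per gene symbol (1000000 in sum per library). Its 92 rows without a symbol were left out. Whole reads were recovered from the TPM steps for 16857 of 16857 genes above 0, up to a whole factor per gene, so that Poisson intervals and floors cover counting error only. In total 14241978, 16127897, 20551380 and 18862418 reads were on genes in Ctrl 1 and 2 and AZ20 1 and 2.

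Genes with a mean TPM above 1 in either condition were tested on log2(TPM + 1) with limma 3.58.1 (R 4.3.3), with a variance trend and no pairing term. Calls needed a 2-fold change and an adjusted p under 0.05. TPM is relative to the rest of each library, and the added 1 makes a fold on the log2(TPM + 1) scale understate changes of low genes. Positions and overlaps came from GENCODE vM21, other computations from Python 3.11.15 with numpy 2.4.6, scipy 1.17.1 and pandas 2.3.3. The fits were also run on simulated data. Their spread was set by hand and not fitted to these libraries, so no conclusion is drawn from them.

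The 8 genes, the partner and marker lists and the tests were chosen with earlier results of these data known. Named partners were the called and X-linked genes, the highest and lowest tested change of each list and the nearest partner of each gene. Of these, 1 is not reported here. The older symbol used for Shld1 was corrected after the data were seen. Replicate numbers were taken to pair the libraries because the methods divide the cells of 1 mouse between conditions. That equal numbers share a mouse is not stated. Deviations of libraries with the same number from their group means correlated at 0.229 over genes tested. Alternatives were other pseudocounts, filters, scalings, variance models, the block, limma-voom and leaving out each library.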

Additional observations from a re-analysis of the deposited data

How the results depend on the processing

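With 2 libraries per condition, the 8 genes had 0 calls in either direction under all 14 alternatives. On the log2(TPM + 1) scale their intervals leave room for changes under 2-fold and, for H2afx and Mdc1, for a 2-fold rise. In TPM they also leave room for a 2-fold fall of Rnf168 and Brca1 and a 2-fold rise of Bard1. A filter at a mean TPM above 5 left Rnf168, Brca1 and Bard1 untested. Of these alternatives, 1 gave 1 of the 8 genes an unadjusted limma p under 0.05, namely H2afx without AZ20 replicate 2. With the replicate block, which models the pairing taken from replicate numbers, 424 genes of the whole table were called higher and 23 lower. Without it 235 and 5 were. The block changed no call among the 8 genes or the partners. Called lower over all genes numbered 1 with no filter on low values, 3 with limma-voom and 11 with limma-voom and the replicate block. Leaving out each library in turn gave 0 to 200 genes called higher, 0 to 1 called lower and 0 to 2 partners called higher. The lowest counts of genes and partners called higher came without either AZ20 library, where 1 treated library remained, assumed to vary like the others.

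Quantile normalization shifted the median log2 change of all genes by -0.14, and the other scalings by less than 0.1. The log2 change of Brca1 became -0.041 with median-of-ratios scaling, -0.25 with quantile normalization, -0.0496 with limma-voom and -0.074 with limma-voom and the block. For Uimc1 the same 4 settings gave -0.079, -0.12, -0.086 and -0.085, and for L3mbtl2 -0.037, -0.19, -0.052 and -0.0516. Under quantile normalization Bard1 became -0.037, Bap1 -0.071, Herc2 -0.029, Paxip1 -0.042, Rif1 -0.0045 and H2afz 0.0198. Leaving out each library gave ranges that crossed 0 for H2afx (-0.32 to 0.75), Brca1 (-0.16 to 0.19), Uimc1 (-0.041 to 0.049), Bap1 (-0.024 to 0.21), Fam35a (-0.92 to 0.056), H2afb1 (-0.66 to 1.49), H2afz (-0.14 to 0.087), Paxip1 (-0.13 to 0.59), Rif1 (-0.052 to 0.29), Supt16 (-0.57 to 0.022) and Usp3 (-0.51 to 0.0202). The cause of these reversals was not tested. Mdc1, Rnf8, Trp53bp1 and Rnf168 kept their sign under every alternative run, but quantile normalization brought Trp53bp1 from 0.22 to 0.0087 and Mdc1 from 0.43 to 0.19.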
